A study of Mus musculus with 9 samples.

Results

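SLAMF3, the product of Ly9, is a receptor of the signaling lymphocyte activation molecule (SLAM) family that sits on lymphocytes and other blood cells and binds another SLAMF3 molecule on a neighbouring cell. Its expression was followed in mouse MC38 colon carcinoma cells together with that of 7 other genes that are best known from blood cells and encode adaptors, a kinase, a phosphatase, GTPase regulators and an endocytic protein: Grap2, Samsn1, Fes, Arhgap9, Ptpn7, Gimap9 and Fcho1. The 8 genes were chosen by symbol among the 16399 genes listed, because earlier work on these libraries had shown them low in the parental cells and higher in both liver metastatic derivatives. The contrast of each derivative with the parental cells therefore chose them, and their values in it are given as a description with no test. The difference between the derivatives is tested, although that of Slamf3 was also known beforehand.

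The parental MC38-P cells carry GFP and luciferase. MC38-LM3a and MC38-LM3b are separate colorectal cancer liver metastasis (CRLM) derivatives of them, obtained by repeated intrasplenic injection into immunocompetent C57BL/6 mice and isolation of tumor cells from the liver lesions. All 3 groups share the reporters, and each derivative is a single selected population, so that its 3 replicates are samples of 1 line and not separate selections. RNA of cultured cells was sequenced in 3 libraries per group. The study calls its replicates biological, and neither it nor the labels say whether they were separate cultures, so p-values measure the spread between these libraries. Since RNA was measured in bulk, a gene carried by few cells at a high level and one carried by all cells at a low level cannot be told apart.

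Values are TPM, a transcript level per unit of length that is scaled to the same sum in each library, so that read depth is unknown. Between 10875 and 11218 genes reached 1 TPM per library. Some libraries stood apart from the rest of their group by transcript length. The deviation of a library from its group mean was correlated with transcript length over 11096 genes (Spearman). The correlation was -0.62 in MC38-P replicate 3, against 0.509 and 0.413 in the other MC38-P libraries. In MC38-LM3a replicate 3 it was 0.644, against -0.552 and -0.513 in the other MC38-LM3a libraries. In MC38-LM3b it lay between -0.013 and 0.016. A fold change is a difference of log2(TPM + 1), which understates the change of genes near 0, and all 8 genes were among the 11287 tested, which reached 1 TPM in 3 or more libraries. Of the 8, only Ptpn7 reached 1 TPM in a parental library, so the others entered through the derivatives in which they are high.

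SLAM receptors signal through short cytoplasmic motifs that, once phosphorylated, bind the SH2 domains of small adaptors such as SAP and EAT-2 or of phosphatases, and so tune killing, cytokine release and adhesion in lymphocytes and phagocytes. Further inside the cell, adaptors such as GADS, the product of Grap2, bring together the scaffolds LAT and SLP-76 after antigen receptor engagement. These are proteins of blood cells. Carcinoma cells have their own sets of adaptors, kinases and GTPase regulators, often close relatives of the blood cell forms.

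Slamf3 was listed at 0.04, 0 and 0 TPM in the MC38-P libraries, at 6.92, 6.50 and 8.16 TPM in MC38-LM3a, and at 17.85, 16.14 and 17.60 TPM in MC38-LM3b. The 3 groups did not overlap, and no fold against the parental cells is given because 2 parental libraries are listed at 0. The mean was 7.19 ± 0.863 TPM (SD, n = 3) for MC38-LM3a and 17.2 ± 0.924 TPM (SD, n = 3) in MC38-LM3b. In rank, Slamf3 went from above 9.32% of all listed genes in MC38-P to above 46.6% for MC38-LM3a and 56.9% in MC38-LM3b. On the log2 scale it was higher than in MC38-P by 3.01 for MC38-LM3a and by 4.17 in MC38-LM3b.

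**Figure D1:**
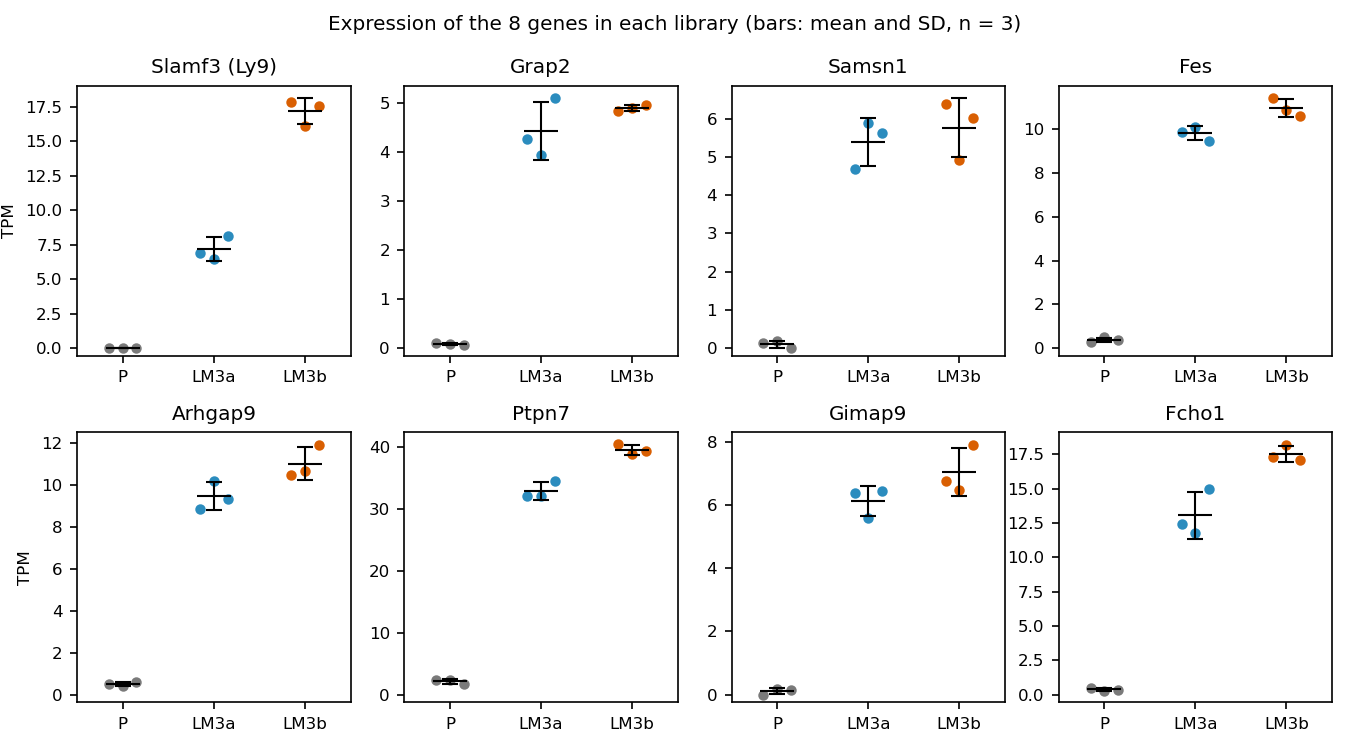
TPM (linear axis) of each of the 8 genes in the 3 MC38-P, 3 MC38-LM3a and 3 MC38-LM3b libraries; points are libraries, the long bar is the mean and the whiskers the SD. In every gene all derivative libraries lie above all MC38-P libraries, and in Slamf3 the MC38-LM3b libraries (16.14 to 17.85 TPM) also lie far above those of MC38-LM3a (6.50 to 8.16 TPM).

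Among the adaptors, Grap2 encodes GADS, which links SLP-76 to LAT downstream of the T cell receptor. It was listed at 0.11, 0.09 and 0.06 TPM in MC38-P, at 4.27, 3.94 and 5.09 TPM in MC38-LM3a and at 4.84, 4.90 and 4.95 TPM in MC38-LM3b. The derivatives overlapped, and their means of 4.43 ± 0.592 and 4.90 ± 0.0551 TPM (SD, n = 3 each) were 51.2 and 56.5 times the parental mean. Samsn1 encodes HACS1, an SH3 and SAM domain adaptor that restrains B cell activation. Its TPM was 0.13, 0.18 and 0 in MC38-P, 4.68, 5.87 and 5.62 in MC38-LM3a and 6.37, 4.91 and 6.01 in MC38-LM3b. Samsn1 thus had the same shape as Grap2, near 0 in the parental cells and about level in the derivatives.

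Of the enzymes, Ptpn7 was the most abundant of the 8 genes in the derivatives. Fes, a cytoplasmic tyrosine kinase of myeloid cells, was at 0.28, 0.49 and 0.36 TPM in MC38-P, 9.87, 10.13 and 9.48 TPM in MC38-LM3a and 11.43, 10.91 and 10.63 TPM in MC38-LM3b. Ptpn7 encodes HePTP, a tyrosine phosphatase of blood cells that acts on MAP kinases. It was at 2.39, 2.41 and 1.67 TPM in MC38-P, 32.11, 32.02 and 34.46 TPM in MC38-LM3a and 40.38, 38.84 and 39.33 TPM in MC38-LM3b, and so was the one gene of the 8 already above 1 TPM in the parental cells. Its means in the derivatives were 15.2 and 18.3 times that of MC38-P, a smaller ratio than that of Fes (26.1 and 29.2) although the level reached was higher. Ptpn7 was above 72.2% of listed genes for MC38-LM3a and above 73.0% in MC38-LM3b.

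Arhgap9 encodes a GTPase-activating protein found mainly in blood cells. Its TPM was 0.48, 0.40 and 0.59 in MC38-P, 8.85, 10.19 and 9.33 in MC38-LM3a and 10.47, 10.64 and 11.92 in MC38-LM3b, with derivative means 19.3 and 22.5 times the parental one. Gimap9 belongs to the GTPases of immunity-associated proteins, which affect lymphocyte survival. It was at 0, 0.18 and 0.15 TPM in MC38-P, 6.39, 5.59 and 6.44 TPM in MC38-LM3a and 6.76, 6.49 and 7.91 TPM in MC38-LM3b. In both genes every MC38-LM3b library was above every MC38-LM3a library, by small margins. Fcho1 encodes a membrane-bending protein that starts clathrin-coated pits with the adaptor AP-2 and is needed in T cells. It was at 0.51, 0.26 and 0.36 TPM in MC38-P, 12.45, 11.74 and 14.95 TPM in MC38-LM3a and 17.31, 18.19 and 17.10 TPM in MC38-LM3b, derivative means of 34.6 and 46.5 times that of MC38-P.

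For the 8 genes the log2 fold changes against MC38-P ran from 2.32 (Grap2) to 3.43 (Ptpn7) in MC38-LM3a and from 2.44 (Grap2) to 4.17 (Slamf3) in MC38-LM3b, while the median over all tested genes was 0.00 and 0.21. Every derivative library was above every parental library in all 8, which also held for 19.1% of all genes tested, and 1.35% of all genes were called at a log2 fold change above 1 in both derivatives with an adjusted p under 0.05 (limma with Benjamini-Hochberg adjustment). Since the genes were chosen for this contrast, nothing is read from these counts. The order of the genes depends on the scale, because at a pseudocount of 0.1 the change of Slamf3 was 6.02 for MC38-LM3a and 7.27 in MC38-LM3b, larger than that of any of the other 7 in either derivative. The genes lie on 7 chromosomes, namely 1 (Slamf3 and Ptpn7), 6 (Gimap9), 7 (Fes), 8 (Fcho1), 10 (Arhgap9), 15 (Grap2) and 16 (Samsn1).

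Between the derivatives, Slamf3 passed the test. Its mean in MC38-LM3b was 2.39 times that in MC38-LM3a, a log2 difference of 1.16 with a standard error of 0.114, a 95% confidence interval from 0.90 to 1.41 and an adjusted p of 0.00318 (limma over all 9 libraries, Benjamini-Hochberg over all tested genes). It was the 1 gene of the 8 with an adjusted p under 0.05, whereas 0.0532% of all tested genes, 6 of 11287, were called in either direction (0 without MC38-LM3b replicate 1 or 3, and 6351 without MC38-LM3a replicate 3). All 3 MC38-LM3b libraries were above all 3 MC38-LM3a libraries. The call was lost without MC38-LM3b replicate 1 (1.13, adjusted p = 0.0724) or replicate 3 (1.14, adjusted p = 0.0712), with a pseudocount of 0.1 (1.25, adjusted p = 0.103) and in the fit with the replicate number as a block (adjusted p = 0.0517), while over all alternatives the difference stayed between 0.90 and 1.25.

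**Figure D2:**
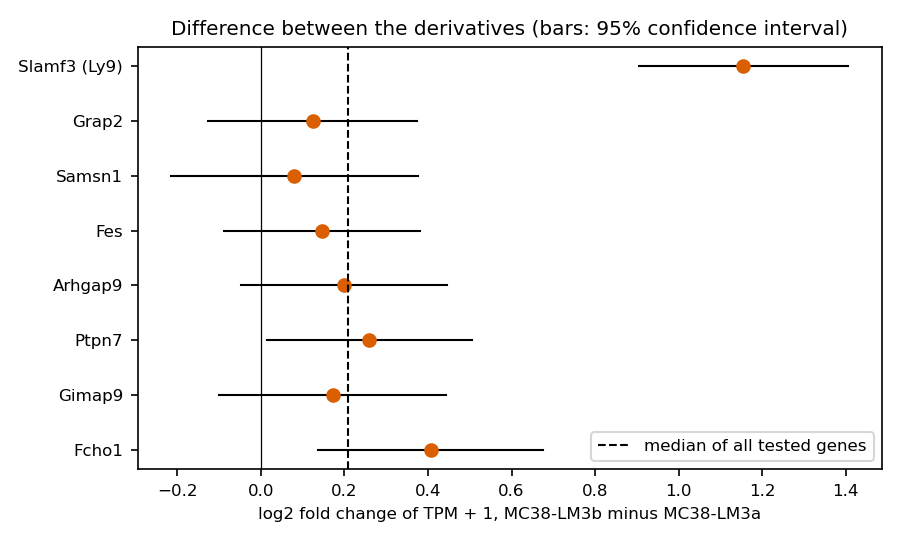
Log2 fold change of TPM + 1 between MC38-LM3b and MC38-LM3a for each gene (point) with its 95% confidence interval (bar), from 3 libraries per group; the solid line marks 0 and the dashed line the median over all tested genes (0.21). The interval of Slamf3 (0.90 to 1.41) lies above the dashed line, and those of the other 7 genes include it.

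The other 7 genes did not pass the test. Fcho1 came nearest, at 1.34 times the MC38-LM3a mean (log2 difference 0.41, interval 0.14 to 0.68, adjusted p = 0.119, limma). Without MC38-LM3a replicate 3, one of the libraries with a length trend, Fcho1 differed by 0.50 with an adjusted p of 0.00674, and with a correction for GC content and transcript length it differed by 0.14 with an adjusted p of 0.343. Ptpn7 differed by 0.26 (interval 0.01 to 0.51, adjusted p = 0.123), Arhgap9 by 0.20 (interval -0.05 to 0.45), Gimap9 by 0.17 (interval -0.10 to 0.44), Fes by 0.15 (interval -0.09 to 0.38), Grap2 by 0.12 (interval -0.13 to 0.37) and Samsn1 by 0.08 (interval -0.21 to 0.38). These intervals do not show that the derivatives are alike. The direction of Fes, Grap2 and Samsn1 turned under the GC content and length correction, and that of these 3, Arhgap9 and Gimap9 under quantile normalization.

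Non-overlap of the derivatives, with MC38-LM3b above MC38-LM3a, was seen in 6 of the 8 genes (all but Grap2 and Samsn1) and in 38.4% of all tested genes. The sign of the difference was positive in 83.6% of all tested genes, and the median over them was 0.21, which became 0.0027 with the GC content and length correction and 0.0086 with quantile normalization. The differences of Grap2, Samsn1, Fes, Arhgap9 and Gimap9 lie at or below the median of 0.21, and the difference of Slamf3 exceeds it by 0.95.

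The annotated start regions of 6 of the 8 genes matched by symbol in RefSeq on GRCm38.p6, as 7 stretches of 300 bases (Ptpn7 has 2). The regions of Slamf3 and Arhgap9 were not searched here. The 7 stretches were searched on both strands for the letters that RUNX factors bind (TGTGGT and the variant TGCGGT). These letters were taken because the study examined how RUNX1 relates to SLAMF3, although the region of Slamf3 itself is not among the 7. One of these letter strings stood in the regions of Gimap9 (94 bases before the start) and Fcho1 (44 bases before the start), both on the opposite strand, and 22.4% of all 32851 such regions held one. The regions of Grap2, Samsn1, Fes and Ptpn7 held neither, which says only that these letters are not in those windows. The Gimap9 region lies at chr6:48675885-48676184 on the plus strand and the Fcho1 region at chr8:71725632-71725931 on the minus strand, and they are shown because they are the stretches with a match, in capitals:
Gimap9: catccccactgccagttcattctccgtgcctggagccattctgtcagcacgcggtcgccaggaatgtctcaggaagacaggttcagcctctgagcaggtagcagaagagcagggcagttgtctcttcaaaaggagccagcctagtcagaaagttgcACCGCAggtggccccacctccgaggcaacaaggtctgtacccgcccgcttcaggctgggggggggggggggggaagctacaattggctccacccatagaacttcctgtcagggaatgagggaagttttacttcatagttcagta
Fcho1: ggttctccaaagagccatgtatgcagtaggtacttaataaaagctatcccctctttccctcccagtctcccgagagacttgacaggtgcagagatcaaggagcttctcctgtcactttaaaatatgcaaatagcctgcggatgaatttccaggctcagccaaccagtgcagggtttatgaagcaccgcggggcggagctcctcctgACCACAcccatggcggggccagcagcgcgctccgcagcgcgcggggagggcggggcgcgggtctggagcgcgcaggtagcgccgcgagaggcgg
A match in letters is a description and not a binding site. The letters AGGAAGT, which the myeloid and B cell factor PU.1 can bind, stood in the regions of Samsn1 (49 and 30 bases before the start) and Gimap9 (6 bases after it), against 9.35% of all regions. The AP-1 letters TGANTCA stood in none of the 7 and in 7.81% of all regions. Likewise absent were the letters AGATAA, read by GATA factors and present in 11.2% of all regions, and those read by other ETS factors, CCGGAAG, present in 8.86%. The CpG counts differed widely, with 2 in Grap2, 5 in Samsn1, 15 in Fes, 10 and 7 in Ptpn7, 8 in Gimap9 and 21 in Fcho1, beside a median of 7 over all regions.

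The receptors of the SLAM family other than Slamf3 stayed below 1 TPM. Of 8 receptors, 4 were listed (Slamf8, Cd84, Cd244a and Slamf7), with a highest value of 0.98 TPM, and none was tested. Cd244a, which encodes the natural killer cell receptor 2B4 and lies next to Slamf3 on chromosome 1, was at 0.03, 0 and 0.05 TPM in MC38-P, 0.39, 0.32 and 0.31 TPM in MC38-LM3a and 0.45, 0.34 and 0.81 TPM in MC38-LM3b. Its derivative libraries were all above its parental ones, at levels far lower than those of Slamf3. Such a separation held for 19.1% of tested genes, but Cd244a was not tested, so nothing is read from it. Slamf7, the neighbour on the other side, was at 0 in 8 libraries and at 0.06 TPM in MC38-LM3b replicate 3. Slamf8 was lower in every derivative library than in every parental one, but only by the last digit listed. Its lowest parental value was 0.57 TPM and its highest derivative value 0.56 TPM, so no direction is read from it. It was at 0.57, 0.98 and 0.72 TPM in MC38-P, 0.1, 0.11 and 0.4 TPM in MC38-LM3a and 0.36, 0.56 and 0.21 TPM in MC38-LM3b. Cd84 overlapped between the groups.

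Of 8 genes for proteins that bind the cytoplasmic tails of SLAM receptors, 6 were listed and 5 tested. The adaptor gene Sh2d1b1 (EAT-2) was at 0.22 to 0.96 TPM over all libraries. Ptpn6, which encodes the inhibitory phosphatase SHP-1, fell from 14.0 TPM in MC38-P to 7.84 TPM for MC38-LM3a and 9.16 TPM in MC38-LM3b (log2 fold changes -0.76 and -0.56, adjusted p = 2.9e-04 and 0.00127, limma), and no listed gene of this group rose in both. Over all tested genes 14.1% were called higher and 13.8% lower in MC38-LM3a, and 35.6% higher and 11.2% lower in MC38-LM3b. These shares depend on the scaling, at 26.5% and 24.6% in MC38-LM3a and 29.3% and 28.3% in MC38-LM3b with the GC content and length correction, and 21.5%, 20.5%, 25.9% and 24.5%, in that order, with quantile normalization. Fyn, a Src family kinase that SAP recruits, fell in MC38-LM3a (-0.47, adjusted p = 0.0127, lost without MC38-P replicate 2 at 0.0637 or MC38-LM3a replicate 2 at 0.0516), with -0.18 in MC38-LM3b, where the GC content and length correction and quantile normalization gave calls (-0.37 and -0.44, adjusted p = 7.8e-04 and 7.3e-04). Ptpn11 (SHP-2) and Grb2 rose in MC38-LM3b (0.43 and 0.36), beside a shift of 0.21 in the median gene, and Inpp5d (SHIP1) was near 1 TPM throughout. The call of Ptpn11 was lost without MC38-P replicate 3 (0.31, adjusted p = 0.0692) and without any one of the MC38-LM3b libraries (adjusted p from 0.0540 to 0.0598). With the GC content and length correction Ptpn11 was called in both derivatives (0.18 and 0.14, adjusted p = 0.00183 and 0.00929), and Grb2 in MC38-LM3b at 0.21.

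Among the relatives of the other 7 genes, 1 had a change of similar size. Of 19 genes in the same families, 16 were listed and 9 tested, and 2 rose in both derivatives, against 13.3% of all tested genes. This was Grap, which encodes a lymphoid adaptor with the same SH3-SH2-SH3 build as GADS. It was at 2.07, 2.96 and 2.84 TPM in MC38-P, 30.92, 30.03 and 29.96 TPM in MC38-LM3a and 27.05, 26.74 and 28.45 TPM in MC38-LM3b, log2 fold changes of 3.12 and 2.98 (adjusted p = 4.3e-08 and 3.8e-08, limma). In Grap the MC38-LM3a libraries were the higher ones, and the derivatives did not differ by the test (-0.14, adjusted p = 0.330). The sign was opposite to that of Grap2 in this fit, which depends on the processing. With the GC content and length correction and with quantile normalization both genes were negative (Grap -0.19 and -0.36, Grap2 -0.18 and -0.13).

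Arhgap27, a relative of Arhgap9, rose by 0.63 in MC38-LM3a and, in MC38-LM3b, by 0.98, the former call being lost without MC38-P replicate 3 (0.46, adjusted p = 0.0517), with only the groups compared and with a replicate block (the highest adjusted p, 0.0674). Ptpn5, the brain relative of Ptpn7 known as STEP, fell from 3.33 TPM to 1.28 and 1.16 TPM (log2 fold changes -0.93 and -1.0). Sash1 (0.83), Fer (0.43), Arhgap12 (0.66), Fcho2 (0.68) and Grb2 passed the test in MC38-LM3b, and in MC38-LM3a their fold changes were 0.12 to 0.42 without a call. Sash1, Fer and Arhgap12 were also called in MC38-LM3a with the GC content and length correction (0.49, 0.16 and 0.28, highest adjusted p = 0.0310) and with quantile normalization (0.41, 0.21 and 0.30, highest adjusted p = 0.0109). In MC38-LM3b that correction gave 0.53 for Sash1, 0.23 for Fer, 0.38 for Arhgap12 and 0.39 for Fcho2. The call of Fer was lost without MC38-LM3b replicate 2 (0.41, adjusted p = 0.0511). Arhgap15 passed in neither. None of the 4 Gimap genes listed beside Gimap9 exceeded 0.17 TPM, and Sash3, Ptprr and Sgip1 were at or below 0.12 TPM.

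**Figure D3:**
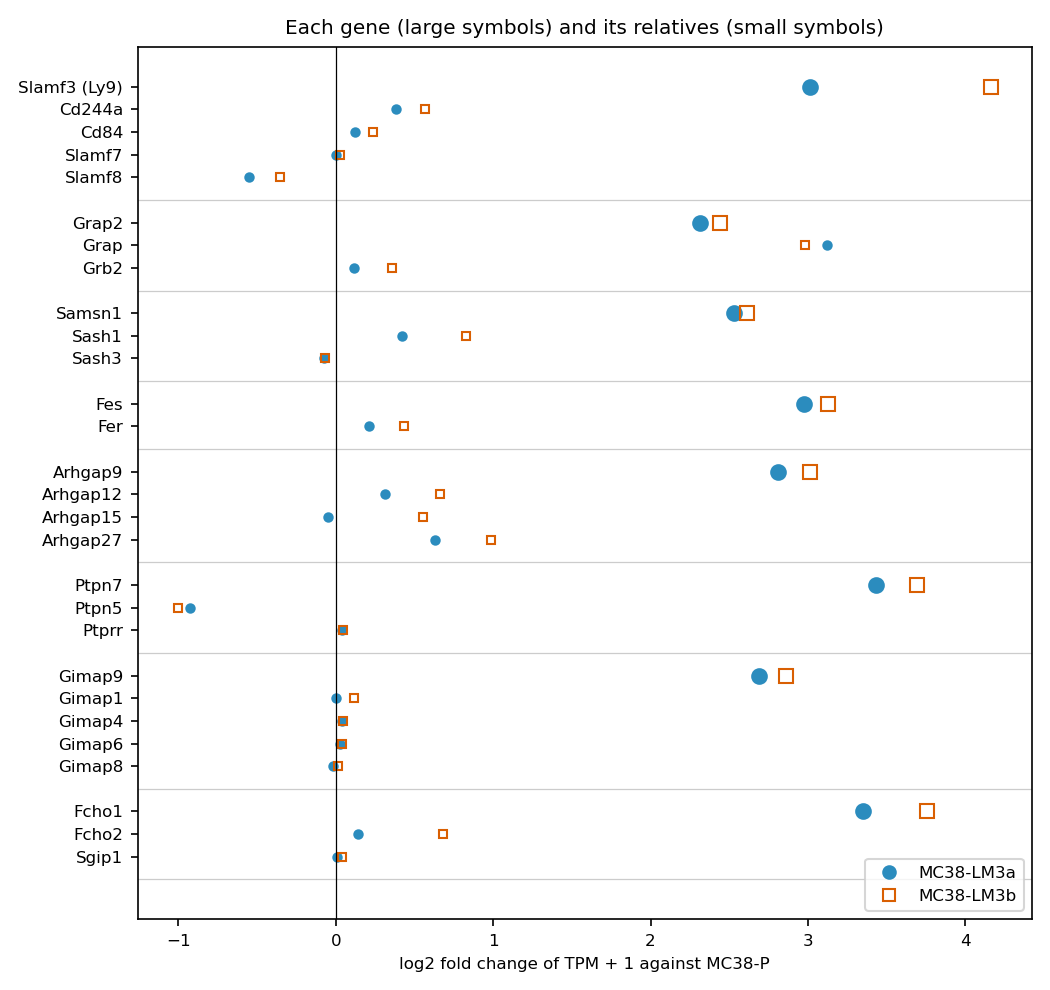
Log2 fold change of TPM + 1 against MC38-P in MC38-LM3a (filled circles) and MC38-LM3b (open squares), means of 3 libraries each, for the 8 genes (large symbols) and their listed relatives (small symbols, in groups). All relatives except Grap (3.12 and 2.98) lie below 1.

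Of 16 genes of the LAT and SLP-76 module, in which GADS works in T cells, 12 were listed and 6 tested. Lat, Lcp2 (SLP-76) and Zap70 stayed at or below 0.10 TPM in all 9 libraries, and Lck at or below 0.50 TPM. Among the tested ones, which are also used outside T cells, Fyb (the adhesion adaptor ADAP) rose in both derivatives. It went from 1.45 TPM to 3.05 and 4.37 TPM (log2 fold changes 0.72 and 1.14), and none of the 6 fell. Of all tested genes, 13.3% rose in both, 14.1% rose and 13.8% fell in MC38-LM3a, and 35.6% rose and 11.2% fell in MC38-LM3b. Nck1, Nck2 and Cblb passed the test in MC38-LM3b and not in MC38-LM3a. The difference between the derivatives did not pass in any of these 3 (lowest adjusted p = 0.119, limma). The rise of Cblb in MC38-LM3b was not called without its replicate 2 (0.54, adjusted p = 0.0501), nor that of Nck1 without MC38-P replicate 3 or any MC38-LM3b library (adjusted p from 0.0619 to 0.0829), with the GC content and length correction (0.052, adjusted p = 0.502) or with quantile normalization (0.11, adjusted p = 0.196). In MC38-LM3a, Nck1, Nck2 and Cblb were called with the GC content and length correction (0.17, 0.20 and 0.20, adjusted p = 0.0472, 0.00557 and 0.00890), and Nck2 also with quantile normalization (0.19, adjusted p = 0.0205).

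MAP kinases, the substrates of HePTP, were read beside it. Mapk3 was at 108.4 to 125.97 TPM over the 9 libraries. Of 5 such kinase genes tested, Mapk12 alone passed, lower in MC38-LM3a (-0.34, adjusted p = 0.0383), and its call was lost without any one of 7 libraries (adjusted p from 0.0628 to 0.130). None of the 5 passed in MC38-LM3b, where Mapk12 was called with quantile normalization (-0.28, adjusted p = 0.00121). Lower calls made up 13.8% of all tested genes in MC38-LM3a and 11.2% in MC38-LM3b. Of 11 genes for the clathrin coat and for proteins that work with FCHO1, 1 rose in MC38-LM3a (Ap2s1, 0.44) and 5 in MC38-LM3b (Ap2b1, Eps15, Eps15l1, Itsn2 and Picalm, 0.38 to 0.67), beside 14.1% and 35.6% of all tested genes. With the GC content and length correction those 5 were called in MC38-LM3a as well (0.16 to 0.28, adjusted p from 0.00324 to 0.0264), so that which derivative holds the calls depends on the processing. Eps15 lost its call without MC38-P replicate 3 (0.36, adjusted p = 0.0529) or MC38-LM3b replicate 1 (0.50, adjusted p = 0.0537), and Picalm without MC38-P replicate 2 or 3 or any MC38-LM3b library (adjusted p from 0.0542 to 0.0735) and with the GC content and length correction (0.099, adjusted p = 0.0966).

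A wider list of 71 signaling genes typical of blood cells was mixed. Of its members 66 were listed and 31 tested, of which 13 rose and 5 fell in both derivatives, against 13.3% and 9.07% of all tested genes. Dok2, counted among the 13, was below 1 TPM in every MC38-P library and was tested only through the derivatives, so nothing is read from its call. Taken singly, 13 rose and 6 fell in MC38-LM3a, beside 14.1% and 13.8% of all tested genes. In MC38-LM3b 17 rose and 5 fell, beside 35.6% and 11.2%. Gmfg and Ptpn22, called higher in MC38-LM3b, were like Dok2 tested only through the derivatives. The median log2 fold changes were 0.11 and 0.45, beside 0.00 and 0.21 over all tested genes. By the mean over both derivatives, the largest rise was that of Rassf5 (RAPL, which links Rap1 to integrins), from 1.98 to 4.95 and 6.25 TPM (log2 fold changes 0.99 and 1.29), and the largest fall that of Rasgrp2 (the Rap1 exchange factor CalDAG-GEFI), from 8.58 to 1.19 and 1.20 TPM (-2.17 in both). Itgb2 (the integrin chain CD18, 0.97 and 1.29) and Prkcb (0.83 and 1.42) rose by nearly as much on that mean. With the GC content and length correction Itgb2 was at 0.98 and 1.13 and Rassf5 at 1.00 and 1.11, so that their order depends on the processing. Plcg2, Nckap1l and Dock8 fell with Ptpn6 in both. The MC38-LM3b call of Dock8 (-0.49) was lost without MC38-P replicate 1 or 2 or MC38-LM3b replicate 2 or 3 (adjusted p from 0.0723 to 0.0834).

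Among 40 transcription factor genes of blood cells, 31 were listed and 15 tested, with 2 up and 2 down in both derivatives, beside 13.3% and 9.07% of all tested genes. Irf8, a factor of myeloid and B cells, rose from 15.2 to 31.8 and 36.4 TPM (1.02 and 1.21). The other factor counted as up was Pax5, the B cell factor, at 0.0367, 1.06 and 1.25 TPM in the group means. Pax5 was below 1 TPM in every MC38-P library and was tested only through the derivatives, so nothing is read from its call. Tcf7 (TCF-1) fell from 22.1 to 4.70 and 5.96 TPM (-2.03 and -1.72), and Eomes fell with it (-0.54 and -0.38), the call in MC38-LM3a being lost without MC38-P replicate 2 (adjusted p = 0.0566) and that in MC38-LM3b without MC38-P replicate 1 or 2 or any MC38-LM3b library (adjusted p from 0.0590 to 0.135). Runx1 was at 10.33, 9.31 and 7.03 TPM in MC38-P, 8.49, 8.47 and 14.16 TPM in MC38-LM3a and 14.31, 14.20 and 14.82 TPM in MC38-LM3b. MC38-LM3a overlapped MC38-P, and its replicate 3 alone came close to the MC38-LM3b level (log2 fold change 0.18, adjusted p = 0.531, -0.05 without that library, and 0.22 with an adjusted p of 0.0442 under the GC content and length correction), and Runx1 rose in MC38-LM3b (0.66, adjusted p = 0.0162, limma), a call lost without MC38-P replicate 3 (0.51, adjusted p = 0.0535) or MC38-LM3b replicate 3 (0.64, adjusted p = 0.0518). The rise of Runx1 in MC38-LM3b stayed called with the GC content and length correction (0.40, adjusted p = 0.0020) and with quantile normalization (0.39, adjusted p = 0.0120). In Slamf3 the MC38-LM3a and MC38-P libraries did not overlap, and a relation of Slamf3 to Runx1 was not tested. Junb was lower in MC38-LM3a (-0.28, adjusted p = 0.0127, and 0.0630 without MC38-P replicate 2), and in MC38-LM3b it was called lower with the GC content and length correction (-0.15, adjusted p = 0.0106) and with quantile normalization (-0.30, adjusted p = 0.00175). Polr2a passed in neither derivative, and Ikzf1 was at most 0.02 TPM.

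Over all lists of this kind, markers included, 91 genes were tested. Between MC38-LM3b and MC38-LM3a, 0 of them passed by limma, and 41 had an unadjusted p under 0.05, as did 38.1% of all tested genes. Without MC38-LM3a replicate 3, 58 of the 91 passed at an adjusted p under 0.05, beside 56.4% of all genes tested in that fit.

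The genes are active in blood cells, so the markers of those cells were read in the same libraries. Of 6 general leukocyte markers, 5 were listed. Ptprc (CD45) was at most 0.09 TPM, Laptm5 at most 0.14 TPM, and Cd53 and Coro1a at most 0.23 TPM, all below the 3.94 TPM that was the lowest value of any of the 8 genes in a derivative library. Srgn, the serglycin proteoglycan, moved with the 8 genes, from 1.95 TPM in MC38-P to 10.8 and 9.61 TPM (1.99 and 1.84). The summed leukocyte markers were 1.93 to 2.48 TPM per MC38-P library, 8.84 to 12.52 TPM per MC38-LM3a library and 8.06 to 10.97 TPM per MC38-LM3b library, nearly all of it Srgn.

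The summed T and NK cell markers, 6 of 17 listed, reached 0.55 TPM in MC38-P, 0.91 TPM for MC38-LM3a and 0.34 TPM in MC38-LM3b, and the summed B cell markers, 3 of 6 listed, at most 0.47 TPM in any library. Among 16 macrophage markers 8 were listed. Cd68, a lysosomal protein also made outside macrophages, accounted for most of their sum of 28.58 to 46.34 TPM and rose by 0.33 and 0.57 (without MC38-P replicate 2 the former was 0.31, adjusted p = 0.0844), while each other one was at most 0.79 TPM. Granulocyte and mast cell markers summed to 3.29 to 8.32 TPM (Ly6g at most 6.46), erythroid and platelet markers to 1.06 to 2.87 TPM (Pf4 at most 1.61), and hepatocyte markers to 1.81 to 4.29 TPM (Apoa2 at most 4.23). Endothelial and stellate markers, 8 of 11 listed, summed to 3.37 to 4.37 TPM per MC38-P library, 2.67 to 4.15 TPM per MC38-LM3a library and 5.38 to 5.74 TPM per MC38-LM3b library. They were led by Pdgfrb, a receptor of mesenchymal cells, at 1.54, 2.13 and 3.66 TPM in the group means (log2 fold changes 0.30, adjusted p = 0.135, and 0.88, adjusted p = 6.9e-04, limma). In MC38-LM3a it was called with the GC content and length correction (0.38, adjusted p = 0.00736) and with quantile normalization (0.35, adjusted p = 0.0116). The part of these markers in the result was not tested.

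The labels call the cells colon epithelial cells. Krt8 (743.78 to 1205.6 TPM) and Krt18 were abundant in all libraries, whereas Cdh1, Cdx1, Vil1 and Cldn7 were at or below 0.15 TPM. Of 6 epithelial markers tested 4 fell in both derivatives, among them Epcam, from 5.76 to 2.05 and 2.21 TPM (-1.14 and -1.07), beside 9.07% of all tested genes. Krt18 was another (-0.24 and -0.32), and its MC38-LM3a call was lost without MC38-P replicate 2 or 3 (adjusted p = 0.0695 and 0.0684). Cdx2, also counted among the 4, was below 1 TPM in every derivative library and was tested only through MC38-P, so nothing is read from its call. The 2 remaining ones, Krt19 and Krt20, rose in MC38-LM3a (0.39 and 0.55, adjusted p = 0.00358 and 0.0344), and Krt20 lost its call without any one of 4 libraries (adjusted p from 0.0539 to 0.116). Krt20 was also below 1 TPM in every MC38-P library and was tested only through the derivatives, so nothing is read from its call.

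**Figure D4:**
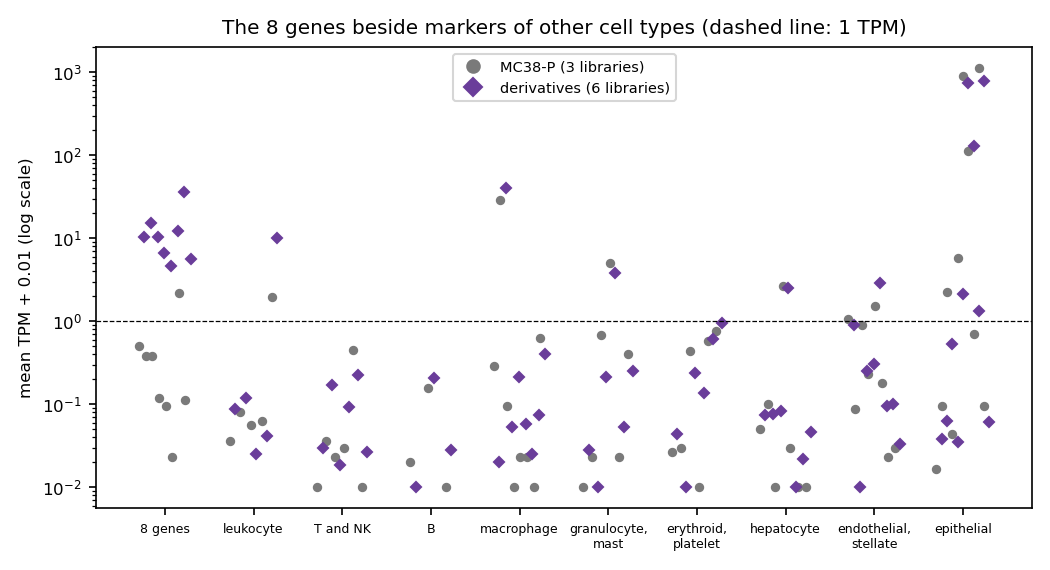
Mean TPM + 0.01 (log axis) in MC38-P (grey circles, 3 libraries) and in the derivatives together (purple diamonds, 6 libraries) for the 8 genes and for the listed markers of each cell type; the dashed line marks 1 TPM. The 8 genes cross the line from below except for Ptpn7, while the blood cell markers stay below it in both, apart from Srgn, Cd68 and Ly6g.

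The tested genes next to the 8 all had a log2 fold change of TPM + 1 below 1 against MC38-P. This holds in the fit over all libraries, since B3gnt3 beside Fcho1 reached 1.01 in MC38-LM3b without MC38-P replicate 2. For each of the 8 genes the nearest listed gene on either side was taken, 16 in all. Of 10 tested, 2 rose in both derivatives (Arl8a beside Ptpn7, 0.36 and 0.62, and B3gnt3 beside Fcho1, 0.69 and 0.96) and 2 fell in both (Enthd1 beside Grap2, -0.59 and -0.47, and Gli1 beside Arhgap9, -1.36 and -1.30), beside 13.3% and 9.07% of all tested genes. Hspa13 beside Samsn1 (0.61) and Man2a2 beside Fes (0.74) passed in MC38-LM3b alone by this test (adjusted p = 0.00149 and 0.00639, limma), with 0.27 and 0.34 in MC38-LM3a. So did Lgr6 beside Ptpn7 (0.37, adjusted p = 0.0483, limma), a call that 4 of 16 alternatives kept. Mars1 beside Arhgap9 was called lower in MC38-LM3a alone (-0.22, adjusted p = 0.0439, limma), which 6 of 16 alternatives kept. Under the GC content and length correction Hspa13 and Man2a2 were called higher, and Mars1 lower, in both derivatives. There 4 rose and 3 fell in both, beside 22.7% and 21.5% of all genes in that fit. The counts were the same with quantile normalization, beside 17.7% and 17.0%. Gli1 was below 1 TPM in every derivative library and was tested only through MC38-P, so nothing is read from its call. Without any one of the MC38-P libraries Gli1 was below the level required for testing. The medians of the 10 were 0.03 and 0.41, beside 0.00 and 0.21 over all tested genes. The 6 others stayed under 1 TPM in every library, where this scale shows little. One is Cd244a beside Slamf3, with means of 0.0267, 0.34 and 0.533 TPM. Every derivative library of Cd244a was above every parental one, from which nothing is read because it was not tested. Others are Gimap8 and Gimap4, which flank Gimap9 in a cluster of the family. On chromosome 15, which holds Grap2, the median over 464 tested genes was -0.53 for MC38-LM3a and -0.31 in MC38-LM3b, so that Grap2 was higher on a chromosome whose median gene was lower. On the 6 other chromosomes with a member the medians were 0.00 to 0.02 in MC38-LM3a and 0.18 to 0.30 in MC38-LM3b.

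**Figure D5:**
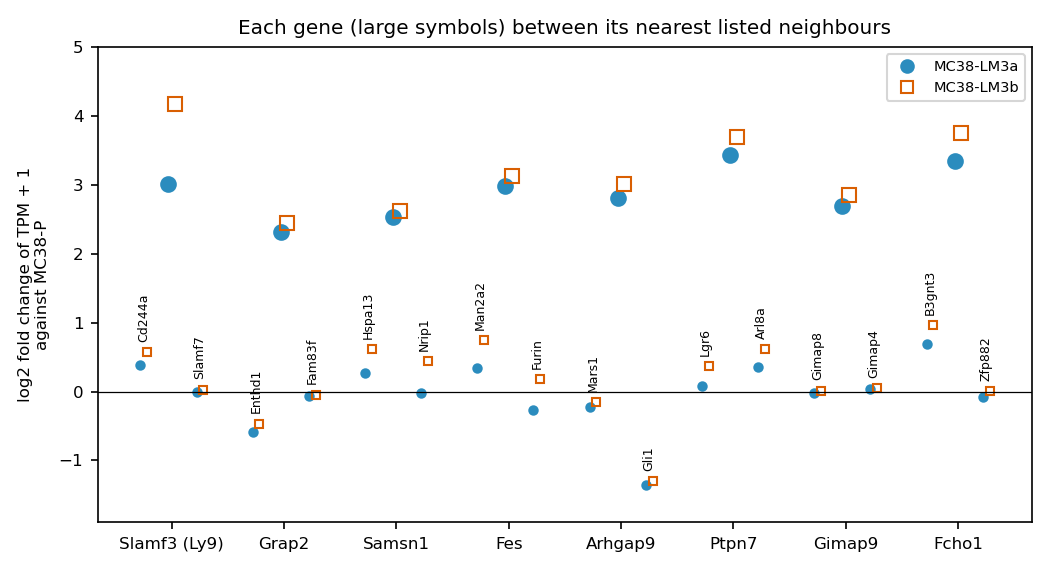
Log2 fold change of TPM + 1 against MC38-P in MC38-LM3a (filled circles) and MC38-LM3b (open squares), means of 3 libraries each, for each of the 8 genes (large symbols) and the nearest listed gene on each side of it (small symbols, named). On this scale, which compresses genes under 1 TPM such as Cd244a, all neighbours lie below 1, the highest being B3gnt3 (0.69 and 0.96).

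Across the 9 libraries the 7 other genes had a Pearson correlation with Slamf3 between 0.966 (Samsn1) and 0.984 (Fcho1). This is a description, since the points share 3 groups that were chosen to differ. Outside the set, the tested genes most like Slamf3 were Il15 (r = 0.9967), Gsn (0.996), Smyd4 (0.9958), Cd82 (0.9957) and Vcam1 (0.9953). Il15, a cytokine that sustains NK and memory T cells, was at 0.73 to 0.77 TPM in MC38-P, 2.69 to 3.69 TPM in MC38-LM3a and 5.03 to 5.24 TPM in MC38-LM3b. Vcam1, a leukocyte adhesion molecule, was at 8.79, 22.1 and 28.7 TPM in the means of the 3 groups. In each of these genes the MC38-LM3a mean lies between those of the other groups, which their choice by correlation with Slamf3 favors. The order depends on the processing. With the GC content and length correction the fold changes against MC38-P in MC38-LM3a and MC38-LM3b were 0.503 and 0.454 for Gsn. They were 0.478 and 0.475 for Smyd4, while Il15, Cd82 and Vcam1 stayed higher in MC38-LM3b.

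The mean of the scaled 8 genes, which is about level in the derivatives, was matched best by Ankrd1 (r = 0.9984), H2-K1 (0.9982), Scn8a (0.9981), Kcnab2 (0.9978) and H2-D1 (0.9976). Ankrd1, a target of YAP and TEAD, went from 10.3 TPM to 63.3 and 69.3 TPM. The classical MHC class I genes H2-K1 and H2-D1 went from 253.8 and 261.5 TPM to 691.9 and 675.0 TPM in MC38-LM3a and 784.5 and 756.6 TPM in MC38-LM3b, and since these genes are near-identical in part, their reads can be split between them.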

How the data were processed

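RNA of the 3 cultured lines, each with 3 libraries, was enriched with oligo(dT) and sequenced on a DNBSEQ platform. The authors deposited TPM per gene, 1 table per library. The submitters' processing notes name HISAT and GRCm39, and the quantification tool is not given in the sources used here. TPM keeps no read depth, so the count tests planned as alternatives were not run. TPM from short reads depends on transcript length and GC content where libraries differ in fragmentation.

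Groups were taken from the labels. The 11287 of 16399 genes that reached 1 TPM in 3 or more libraries were tested on log2(TPM + 1) with limma 3.58.1 in R 4.3.3 (trend, 1 mean per group, all 9 libraries), with Benjamini-Hochberg adjustment over all tested genes and a threshold of 0.05. The script was tested on simulated data. An exact permutation test of 3 against 3 libraries cannot go below p = 0.1. Names, positions in gene order, transcript lengths and start regions came from GRCm38 tables of GENCODE and RefSeq, matched by symbol or NCBI gene number. No gene coordinate was converted.

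The 8 genes and all gene lists were chosen with earlier results of these data known. The genes named are the 8, the expressed genes of the lists for SLAM receptors, their effectors, relatives and regulators, the largest rise and fall in both derivatives in each other list, the most abundant gene of each marker list, the 5 genes most correlated with Slamf3 and with the mean of the 8, and the nearest listed neighbours. Further genes in the text were chosen after their values were seen. Some items are not reported here. Replicate numbers did not pair the samples. Alternatives were another pseudocount, no filter, a replicate block, a GC content and length correction, quantile normalization, only the groups compared, no trend, and each library left out.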

Additional observations from a re-analysis of the deposited data

Results flagged for a closer look

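The level of Slamf3 in MC38-LM3b exceeded that in MC38-LM3a by 1.16 on the log2 scale (adjusted p = 0.00318, limma), which marks it because the same contrast with MC38-P gave different changes in the 2 derivatives. All 3 MC38-LM3b libraries lay above all 3 MC38-LM3a libraries. The difference was known before the test.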

How the results depend on the processing

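Of the alternative values, 3075 kept their direction and their side of the threshold (for counts, stayed within 1.5 times), 103 lost a call or were smaller counts, 69 gained a call or were larger counts, 33 fold changes of the 8 genes against MC38-P moved by more than the replicate spread, and 10 values reversed; the causes were not tested. The difference of Slamf3 between the derivatives lost its call at a pseudocount of 0.1 (1.25, adjusted p = 0.103) and in the fit with a replicate block (1.16, adjusted p = 0.0517), so that the count among the 8 genes was 0 instead of 1 in both. With each library left out in turn it ran from 1.09 to 1.24 (adjusted p from 0.00135 to 0.0724), and the count among the 8 from 0 (without MC38-LM3b replicate 1 or 3) to 2 (without MC38-LM3a replicate 3, Fcho1 added). The same replicate numbers did not deviate together (r from -0.662 to 0.075), so the block stands only for shared numbers. Between the derivatives the count over the other listed genes was 0, but 1 with no filter and 2 with the GC content and length correction, and 0 to 58 with libraries left out, the highest without MC38-LM3a replicate 3. Against MC38-P those counts were 40 and 55 and stayed within 1.5 times. Differences between the derivatives reversed with the GC content and length correction in Fes (-0.14), Grap2 (-0.18) and Samsn1 (-0.034), and with quantile normalization in Arhgap9 (-0.067), Fes (-0.12), Gimap9 (-0.10), Grap2 (-0.13) and Samsn1 (-0.18). With libraries left out Samsn1 ran from -0.0022 to 0.17, and the change of Runx1 in MC38-LM3a from -0.046 to 0.29. Among the lists, over all alternatives, relatives higher in MC38-LM3a numbered 1 to 5 (2 as reported), transcription factors higher there 1 to 6 (2) and lower 1 to 6 (4), transcription factors lower in MC38-LM3b 1 to 6 (2), genes of the clathrin coat higher in MC38-LM3a 1 to 6 (1) and in MC38-LM3b 3 to 7 (5), and the LAT and SLP-76 genes higher in MC38-LM3a 1 to 4 (1) and in MC38-LM3b 2 to 5 (4). The number called among all tested genes moved as well, from 2083 to 5669 in MC38-LM3a (3160 as reported) and from 3702 to 6637 in MC38-LM3b (5276), highest in MC38-LM3a with the GC content and length correction (51.1% of genes against 28.0%). Depth is unknown, and values near 0 are limited by rounding to 0.01 TPM.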
